A study of Mus musculus with 16 samples.

Results

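In 2208L mammary tumors, 10 genes that mark states of monocytes and macrophages were followed by cell class, state and treatment: C1qa, C1qb, C1qc, Apoe, Trem2, Spp1, Arg1, Mrc1, Ccl24 and Hmox1. They were taken by symbol, from a list drawn up with earlier results of these data known, and are 10 of 32286 genes in the files. All 10 were detected in each of the 4 tumor libraries. 2208L is a Trp53-null triple-negative tumor line grown in female WT BALB/c mice, and treated mice received vehicle (0.5% methylcellulose), the CBP/P300 bromodomain inhibitor IACS-70654 by mouth, anti–PD-1 antibody, or IACS-70654 with anti–PD-1 (the combination). Each condition is 1 library of live tumor cells pooled from 3 mice after 7 days of a schedule of days on and off drug, so differences between tumor conditions have no replicate check and no test, and intervals cover counting error only. The replicated cells of this lineage come from BM: 2 CD45+ Ter119- libraries for each group, namely WT mice without a tumor, and mice bearing 2208L that were given vehicle or IACS-70654. According to the series record, 3 mice of a treatment group were pooled once, so the 2 libraries of a BM group may be parts of 1 pool. P-values then measure only the spread between these libraries.

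Monocytes leave the blood with high Ly6c2 and Ccr2, and as they become macrophages in tissue they gain complement C1q, Apoe and lysosomal genes. C1qa, C1qb and C1qc encode the chains of C1q, the recognition unit of the classical complement pathway, which also tags dying cells for uptake. Apoe carries lipid out of macrophages, Trem2 is a lipid-sensing receptor that signals through Tyrobp, and Spp1 encodes osteopontin, a secreted ligand of CD44 and integrins that marks a macrophage state common in tumors. Arg1 breaks down arginine, Mrc1 is the mannose receptor CD206 of resident and alternatively activated macrophages, Ccl24 encodes eotaxin-2, a chemokine for CCR3+ cells such as eosinophils, and Hmox1 degrades heme.

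The tumor libraries held 15590289 to 43594797 UMIs and 1974 to 5064 cells that passed the filters, with a median of 4724 to 6332 UMIs per cell. No barcode was shared between them. Of 13830 kept tumor cells, 7840 were monocytes or macrophages by marker scores that used none of the 10 genes. Of these, 6025 formed 6 macrophage-like clusters (Adgre1, Mertk, Ms4a7, Cd68 and others) and 1815 formed 1 monocyte-like cluster led by Ccr2 and Plac8, with Ly6c2 also among its leading genes. One macrophage-like cluster, led by F13a1, Saa3, Folr2 and Pf4, had a gene of the monocyte list, F13a1, in front. Macrophage-like cells numbered 673 with vehicle, 2512 with IACS-70654, 512 with anti–PD-1 and 2328 with the combination, and monocyte-like cells 163, 712, 191 and 749. Of kept cells these were 34.09%, 53.01%, 24.94% and 45.97%, and 8.257%, 15.02%, 9.303% and 14.79%. Neutrophils were 23.81%, 5.444%, 27.28% and 6.201%, so the makeup of the libraries differed as well. Doublet calling marked 20 cells (0.1446%) and was not effective, and 5082 of the 7840 cells (64.82%) held at least 1 UMI of an epithelial or neutrophil marker.

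C1qa, C1qb and C1qc lie next to each other on chromosome 4 (GRCm38, minus strand), at chr4:136895917-136898803 (C1qa, ENSMUSG00000036887), chr4:136880129-136886187 (C1qb, ENSMUSG00000036905) and chr4:136889804-136893065 (C1qc, ENSMUSG00000036896) in the GENCODE annotation. Together they span 18675 bases, with 3616 bases between C1qb and C1qc and 2851 between C1qc and C1qa. Trem2 (ENSMUSG00000023992) is at chr17:48346401-48354147 on the plus strand and Mrc1 (ENSMUSG00000026712) at chr2:14229392-14332057 on the plus strand. The 250 bases before the RefSeq start of C1qb, Trem2 and Mrc1 are printed here 5′ to 3′ on the strand of the gene, as 1 gene of the C1q cluster, the receptor that was highest in the same sub-cluster as C1q, and the one that averaged highest in another sub-cluster (below). Capitals mark the letters of a PU.1 core (GAGGAA or its reverse complement TTCCTC, searched on both strands), because PU.1 is a transcription factor of the macrophage lineage.
C1qb, chr4:136886201-136886450: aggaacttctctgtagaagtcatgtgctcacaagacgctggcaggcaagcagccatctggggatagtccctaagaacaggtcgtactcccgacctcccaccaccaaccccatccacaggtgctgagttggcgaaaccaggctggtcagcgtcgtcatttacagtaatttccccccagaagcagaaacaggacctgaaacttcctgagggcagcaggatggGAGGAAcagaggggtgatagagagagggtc
Trem2, chr17:48346151-48346400: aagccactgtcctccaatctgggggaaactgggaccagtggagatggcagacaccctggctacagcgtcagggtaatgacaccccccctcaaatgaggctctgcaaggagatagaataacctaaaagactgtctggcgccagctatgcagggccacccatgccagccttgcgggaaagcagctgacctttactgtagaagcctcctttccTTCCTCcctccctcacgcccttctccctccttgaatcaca
Mrc1, chr2:14229164-14229413: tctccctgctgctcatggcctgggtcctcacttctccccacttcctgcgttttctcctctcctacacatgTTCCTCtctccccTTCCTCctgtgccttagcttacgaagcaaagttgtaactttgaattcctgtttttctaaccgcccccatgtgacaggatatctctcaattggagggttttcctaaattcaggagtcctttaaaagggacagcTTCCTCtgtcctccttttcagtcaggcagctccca
The C1qb window held 1 PU.1 core, 30 bases before the start. Trem2 held 1 PU.1 core, 40 bases before the start, and Mrc1 held 3, at 180, 167 and 35 bases. Of 32851 promoters in the RefSeq table of this build, 23.25% held these letters in such a window, so a match describes letters only. The table matched 6 of the 10 genes (C1qb, C1qc, Apoe, Trem2, Spp1 and Mrc1) and not C1qa, Arg1, Ccl24 or Hmox1.

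In macrophage-like cells the 3 C1q chains were somewhat higher in both libraries given IACS-70654, and none of their ratios was past 0.5 on the log2 scale, the size used here to call a difference between single libraries. C1qa stood at 10266 CPM (the gene's UMIs per class and library, divided by the class total and multiplied by a fixed factor as usual for CPM) with vehicle, 13354.6 with IACS-70654, 9365 with anti–PD-1 and 12725.6 with the combination. The log2 ratio was 0.38 (95% interval 0.37 to 0.39) for IACS-70654 against vehicle and 0.44 (0.43 to 0.46) for the combination against anti–PD-1, comparisons that share no library. C1qb gave ratios of 0.30 and 0.32, and C1qc of 0.14 and 0.12. The order of the chains was the same in both comparisons, with C1qa differing most and C1qc least.

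In monocyte-like cells C1q was lower than in macrophage-like cells in each library, and the difference with IACS-70654 was larger. C1qa stood at 1947 CPM with vehicle, 5593 with IACS-70654, 1752 with anti–PD-1 and 5021 with the combination. The median cell was at 271.2, 3618, 245.9 and 2762 CPM, well under the class value in each library, and the lower quartile was 0 in both libraries without IACS-70654. The libraries without IACS-70654 lay together and those with it lay together, at log2 ratios of 1.52 (1.44 to 1.60) and 1.52 (1.44 to 1.60). C1qb gave 1.41 and 1.53, and C1qc 1.27 and 1.26. This size depended on where the line between the classes was drawn. With both classes together, or with classes drawn from sub-clusters by the higher of the 2 marker scores, C1qa gave log2 ratios down to 0.22 and 0.28 and was not past 0.5 in either comparison, and with a stricter sub-cluster definition it was past 0.5 in the second comparison only. The monocyte-like class also held different sub-clusters in different libraries: a sub-cluster led by Ccr2 and Plac8 held 65.03% of it with vehicle, 79.49% with IACS-70654, 60.21% with anti–PD-1 and 83.85% with the combination, and one led by S100a4 and Tppp3 held 25.15%, 12.22%, 30.89% and 8.812%. Within the Ccr2-led part of the class, C1qa was at 2071, 5356, 2362 and 4848 CPM, log2 ratios of 1.37 and 1.04. Within the S100a4-led part it was at 330.4, 2926, 846.5 and 2906 CPM, ratios of 3.15 and 1.78, the first from 46 UMIs in 41 vehicle cells. Over whole sub-clusters, both classes included, the ratios were 0.55 and 0.46 in the Ccr2-led one and 0.11 and 1.14 in the S100a4-led one (C1qa at 6516, 7048, 2476 and 5456 CPM).

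RNA of C1q was also counted in cells that should lack it. T or NK cells had C1qa at 3712, 7560, 1666 and 5357 CPM in the order vehicle, IACS-70654, anti–PD-1 and combination, although their median cell was at 0, 658.1, 0 and 220.2 CPM. Neutrophils had 666.3, 1872, 608.6 and 1160 CPM, with a median cell at 0 in all 4 libraries. After thinning to 2000 UMIs per cell, 44.44%, 75.7%, 50% and 75.38% of monocyte-like cells held a C1qa UMI, against 50%, 74.77%, 32% and 59.02% of T or NK cells, whose median depths before thinning were 2109, 4740, 2216 and 3119 UMIs (unthinned shares 58.9%, 85.25%, 63.35% and 84.51% of monocyte-like and 47.17%, 66.45%, 40.98% and 54.86% of T or NK cells). After thinning, the share in monocyte-like cells was below that of T or NK cells with vehicle and close to it with IACS-70654. It was above that of T or NK cells with anti–PD-1 and the combination, and in each library without thinning. The order varied with library and with thinning, which leaves out cells under 2000 UMIs, and these shares are not read as expression. The part of RNA from other cells in the C1q difference was not tested.

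Apoe (ENSMUSG00000002985, chr7:19696109-19699188, minus strand) was higher with IACS-70654 in macrophage-like cells in both comparisons. Its level was 42250.2 CPM with vehicle, 63713.9 with IACS-70654, 36681.9 with anti–PD-1 and 67787.1 with the combination. Both libraries given IACS-70654 were above both others, and the log2 ratios were 0.59 (0.59 to 0.60) and 0.89 (0.88 to 0.89). This did not hold in each state. Of the sub-clusters with at least 20 cells in both libraries, Apoe was higher in 4 of 6 and in 6 of 7, and it was lower in the cycling one led by Pclaf in both comparisons, at −0.47 (−0.50 to −0.43) and −0.44 (−0.48 to −0.40). In monocyte-like cells the levels were 16148.6, 20223.2, 13182.3 and 21597.5 CPM, with log2 ratios of 0.32 (0.30 to 0.35) and 0.71 (0.68 to 0.74), the second being 0.42 with classes drawn from sub-clusters by the higher score. T or NK cells held Apoe at 17205.1, 40524.3, 8378 and 26964.5 CPM in the same order of conditions, although their median cell was at 1582, 3798, 1317 and 1713 CPM. The median monocyte-like cell was at 11430.8, 12604.2, 10075.6 and 16862.3 CPM. The part of RNA from other cells was not tested here either.

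Trem2 did not follow Apoe. In macrophage-like cells it was at 778.9 CPM with vehicle, 621.3 with IACS-70654, 805.1 with anti–PD-1 and 706.9 with the combination, log2 ratios of −0.33 (−0.38 to −0.27) and −0.19 (−0.25 to −0.13). In monocyte-like cells the ratios were −0.40 (−0.61 to −0.19) and 0.18 (−0.03 to 0.40), so the second interval included 0. Of the sub-clusters, the S100a4-led one, which holds both classes, had Trem2 lower past 0.5 in both comparisons, at −1.51 (−1.90 to −1.13) and −1.17 (−1.74 to −0.62), and so had the cycling one, at −0.52 (−0.74 to −0.31) and −0.72 (−0.93 to −0.51).

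**Figure D1:**
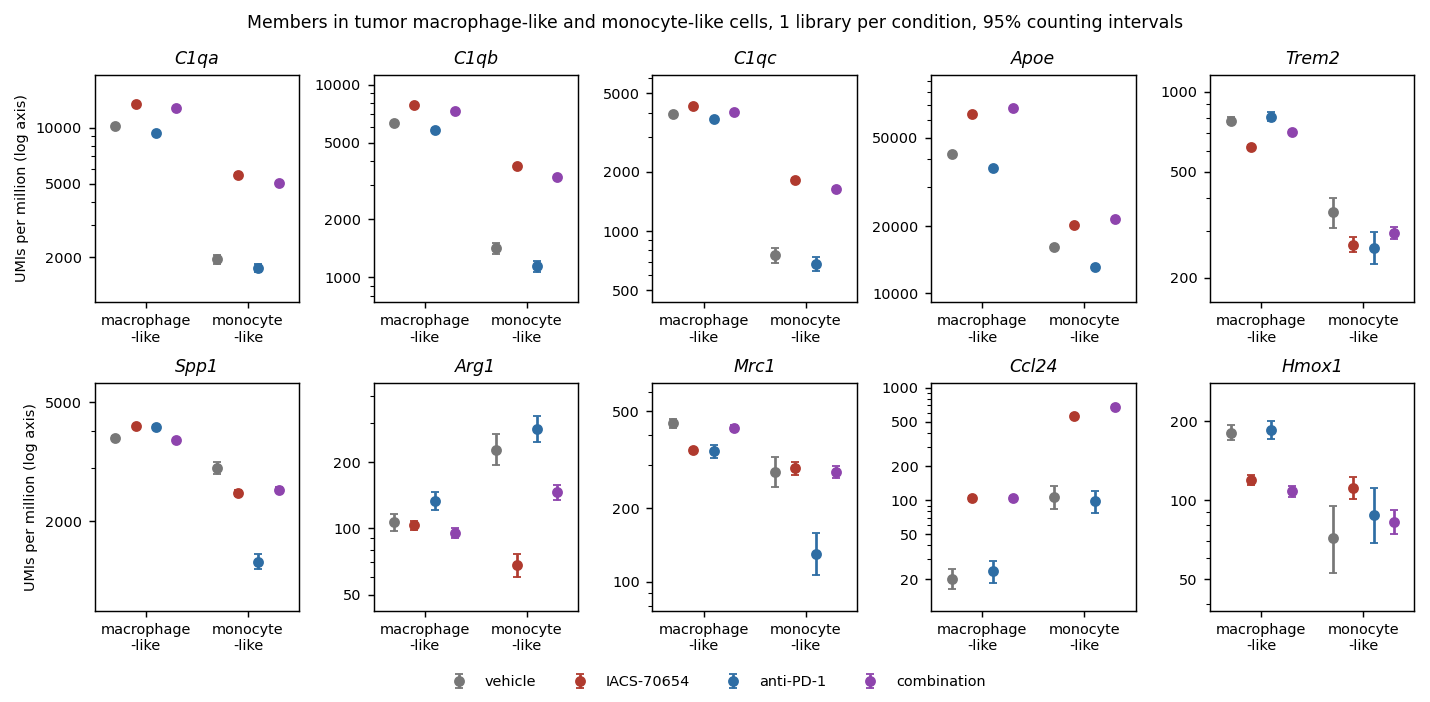
Level of each of the 10 genes (CPM, log axis) in macrophage-like and monocyte-like tumor cells, with 1 point per library and bars for 95% counting intervals. Ccl24 was higher in both libraries given IACS-70654 in both classes, while the C1q genes were past the 0.5 threshold in monocyte-like cells only, a difference between the classes that was not tested.

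Spp1 (ENSMUSG00000029304, chr5:104435118-104441050, plus strand) differed little over macrophage-like cells as a whole. It stood at 3789 CPM with vehicle, 4174 with IACS-70654, 4129 with anti–PD-1 and 3735 with the combination, with log2 ratios of 0.14 (0.12 to 0.16) and −0.14 (−0.17 to −0.12). The sub-clusters went different ways, with ratios of 1.20 and 0.81 in the cycling one, −0.29 and −0.95 in the Ctla2a-led one and 0.66 and −0.86 in the interferon-response one led by Rsad2. In monocyte-like cells it was at 3011, 2485, 1464 and 2547 CPM. There the anti–PD-1 library stood apart below the others, at −1.04 (−1.15 to −0.94) against vehicle, and the combination was 0.80 (0.71 to 0.89) above it. That ratio was −0.06 with both classes together. Malignant epithelial cells were the larger source of this RNA in the tumors, at 22383.9, 10716.2, 20388.9 and 11142.7 CPM. In those cells Spp1 was lower with IACS-70654, at −1.06 (−1.07 to −1.05) and −0.87 (−0.88 to −0.86), where 16.9% and 17.4% of 8205 genes were past 0.5 in either direction. It was lower in 2 of 2 and 4 of 4 epithelial clusters with at least 20 cells in both libraries, by −1.35 to −0.53 and −1.22 to −0.18. The 2 held only 46 and 33 of 388 vehicle epithelial cells, so most of those cells were not compared within clusters. The 4 held 37, 26, 305 and 33 of 485 anti–PD-1 epithelial cells, the 305 set against 20 combination cells. The makeup of these clusters thus differed between libraries. Neutrophils, in which osteopontin RNA is not a defining product, held 1033, 1204, 767.9 and 1414 CPM.

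Arg1 (ENSMUSG00000019987, chr10:24915221-24927484, minus strand) was lower with IACS-70654 in monocyte-like cells. Its level was 227.7 CPM (193.1 to 266.8) with vehicle, 67.83 (59.83 to 76.59) with IACS-70654, 282.7 (247 to 322.2) with anti–PD-1 and 145.6 (134.5 to 157.3) with the combination. The ratios were −1.75 (−2.04 to −1.45) and −0.96 (−1.18 to −0.73). The first ratio was −0.22 at its weakest and missed the threshold with both classes together and with sub-clusters by the higher score. T or NK cells held Arg1 at 45.4, 161, 12.61 and 90.15 CPM, and its part in these values was not tested. The combination was above IACS-70654 alone by 1.10 (0.89 to 1.32). In macrophage-like cells Arg1 was at 106.4, 103.4, 133.6 and 95.57 CPM, ratios of −0.04 (−0.18 to 0.10) and −0.48 (−0.64 to −0.33). Of the sub-clusters with at least 20 cells in both libraries, Arg1 was lower past 0.5 in 2 of 6 and 3 of 7 and higher past 0.5 in 1 and 0, the 1 resting on a single vehicle UMI.

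Mrc1 in macrophage-like cells was at 445.7 CPM with vehicle, 345.6 with IACS-70654, 342.3 with anti–PD-1 and 426.8 with the combination, so the comparisons pointed opposite ways, at −0.37 (−0.44 to −0.30) and 0.32 (0.23 to 0.41). In monocyte-like cells it was at 282.8, 291.4, 130.7 and 281.6 CPM. As with Spp1, the anti–PD-1 library was the low one, at −1.11 (−1.47 to −0.76) against vehicle. The combination was 1.11 (0.82 to 1.41) above it, and 0.31 at the lowest under other class definitions. By sub-cluster, Mrc1 ratios ran from −0.63 to 0.84 against vehicle and from 0.07 to 2.02 for the combination, the last from 10 anti–PD-1 UMIs.

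Ccl24 (ENSMUSG00000004814, chr5:135569937-135573049, minus strand) differed most of the 10 genes. In macrophage-like cells it was at 20.23 CPM (16.48 to 24.59) with vehicle, 104.4 (99.57 to 109.3) with IACS-70654, 23.45 (18.57 to 29.23) with anti–PD-1 and 104.2 (99.07 to 109.5) with the combination. In monocyte-like cells it was at 107.2 (83.85 to 135), 562.2 (538.7 to 586.4), 98.02 (77.48 to 122.3) and 673.4 (649.4 to 698.1) CPM. In each class the 2 libraries given IACS-70654 were several-fold above the other 2. The log2 ratios were 2.37 (2.08 to 2.67) and 2.15 (1.83 to 2.50) in macrophage-like cells, and 2.39 (2.05 to 2.75) and 2.78 (2.46 to 3.12) in monocyte-like cells. After thinning, a Ccl24 UMI was found in 11.76%, 33.87%, 12.22% and 38.03% of monocyte-like cells, in 2.96%, 9.963%, 3.112% and 10.6% of macrophage-like cells, and in 1.667%, 6.306%, 0% and 4.098% of T or NK cells (0 of 75 cells in the third, which allows up to 4.8%; exact binomial). The shares without thinning were 17.18%, 45.79%, 16.75% and 52.74% of monocyte-like, 10.25%, 17.56%, 8.594% and 19.46% of macrophage-like, and 2.83%, 10.53%, 0.8197% and 9.143% of T or NK cells. The share in monocyte-like cells was above that in T or NK cells in each library, and the thinned share in macrophage-like cells lay within the 95% interval of the share in T or NK cells in 3 of 4. By level, T or NK cells were at 37.39, 73.94, 2.521 and 160.4 CPM, above macrophage-like cells with vehicle and with the combination, and neutrophils were at 11.03, 24.03, 7.132 and 17.51 CPM. The part of RNA from other cells in the macrophage-like Ccl24 values was not tested.

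Hmox1 (ENSMUSG00000005413, on the plus strand of chromosome 8) was lower with IACS-70654 in macrophage-like cells, at 180.5 CPM with vehicle, 118.9 with IACS-70654, 185.3 with anti–PD-1 and 107.8 with the combination. The ratios were −0.60 (−0.72 to −0.49) and −0.78 (−0.92 to −0.65). After thinning, the share of macrophage-like cells with an Hmox1 UMI was 16.82%, 17.4%, 19.71% and 16.08%, so the share did not follow the level. Without cells holding an epithelial or neutrophil UMI, the first ratio was 0.00 and the second −1.59. Neutrophils held Hmox1 at 184.3, 91.74, 167.6 and 72.23 CPM, also lower in both libraries given IACS-70654, and their part in the macrophage-like values was not tested. In monocyte-like cells Hmox1 was at 71.45, 111.1, 87.97 and 82.45 CPM, ratios of 0.64 (0.20 to 1.10) and −0.09 (−0.47 to 0.30), and the first ratio was negative when the class was gated on marker UMIs. By sub-cluster, Hmox1 was lower past 0.5 in 2 of 6 and 3 of 7 and higher past 0.5 in 1 and 0, the cycling one.

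In macrophage-like cells, 3 of the 10 genes were past 0.5 in either direction for IACS-70654 against vehicle (11.4% of all 7602 genes tested) and 3 for the combination against anti–PD-1 (14.3%). Of the 10, 2 were higher in both comparisons (Apoe and Ccl24), against 2.78% of all genes, and 1 was lower in both (Hmox1), against 4.84%. For anti–PD-1 against vehicle, which shares libraries with the comparisons above, 0 of 10 were past 0.5 (4.55% of all genes), and for the combination against IACS-70654 0 of 10 (0.552%). In monocyte-like cells, 6 of 10 were past 0.5 for IACS-70654 against vehicle (25.5% of 7264 genes) and 8 for the combination against anti–PD-1 (25.1%). Whether these calls held depended on the class definition. With cells gated on marker UMIs, all of the 6 but Hmox1 and all of the 8 stayed past 0.5 (29.7% and 26.6% of all genes). Most ended under the 2 definitions that follow. With classes drawn from sub-clusters by the higher score, Ccl24 alone of the 6 and Ccl24 and Arg1 of the 8 stayed past 0.5, and Hmox1 was past it as a further gene in the second comparison, lower, for totals of 1 and 3 (17.6% and 17% of all genes). With both classes together, Ccl24 of the 6 and Ccl24, Arg1 and Apoe of the 8 stayed, and with Apoe (higher) and Hmox1 (lower) past 0.5 in both comparisons the totals were 3 and 4 (10.8% and 12%). In the class as defined here, 4 were higher in both (C1qa, C1qb, C1qc and Ccl24; 4.27% of all genes) and 1 was lower in both (Arg1; 5.2%). For anti–PD-1 against vehicle 2 were past 0.5 (Spp1 and Mrc1, both lower; 24.6%), and for the combination against IACS-70654 1 was (Arg1, higher; 4.35%). The median log2 ratio of the 10 genes was 0.14 and 0.22 in macrophage-like cells and 0.48 and 0.95 in monocyte-like cells, where that of all genes was 0.02, −0.04, 0.02 and 0.03. Fewer UMIs stood behind the monocyte-like sums, and a larger share of all genes was past 0.5 there.

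**Figure D2:**
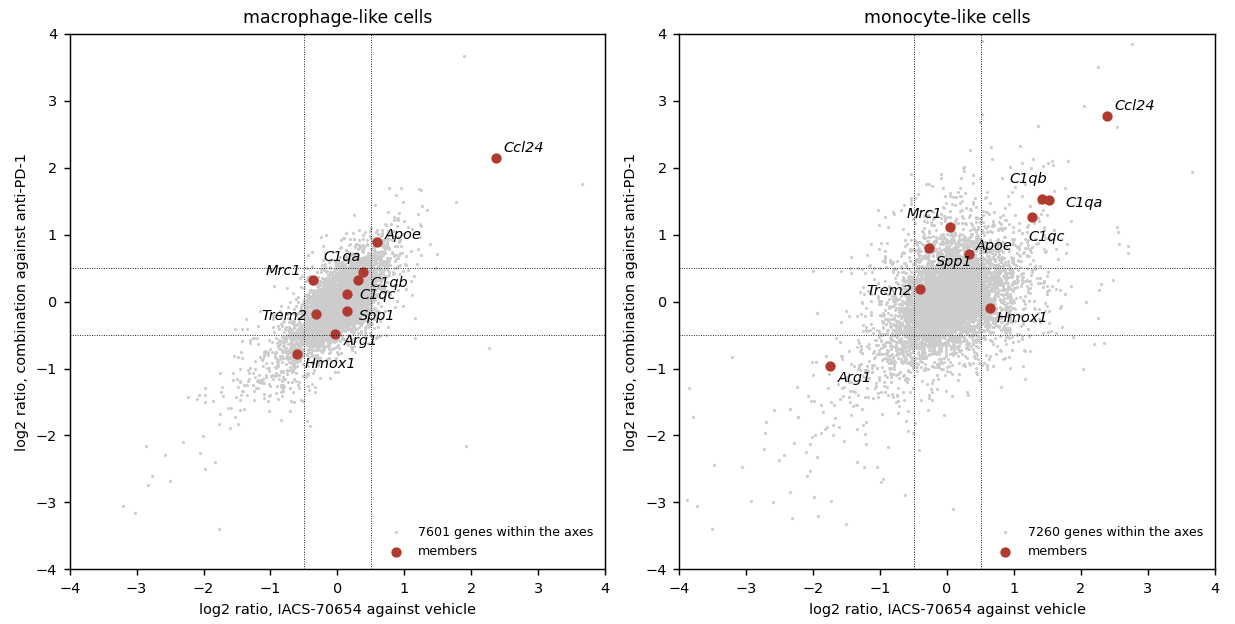
Log2 ratio of every tested gene within the axes (grey) and of the 10 genes (red) for IACS-70654 against vehicle (x) and for the combination against anti–PD-1 (y), in macrophage-like and monocyte-like cells, with dotted lines at −0.5 and 0.5. Ccl24 lay far from most genes in both panels, at 2.37 and 2.15 and at 2.39 and 2.78, and the 3 C1q genes lay together in the monocyte-like panel.

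The 7840 cells fell into 9 sub-clusters of at least 100 cells when the 10 genes and the pathway genes listed below were kept out of the variable genes, leaving out 50 cells. The sub-clusters were named by their leading genes other than the 10, some of which were among the first 10 genes of a few sub-clusters. The C1q chains were highest in the sub-cluster led by Ctla2a and Fabp5 (1757 cells), where C1qa averaged 15069 CPM over the 4 libraries, C1qb 9129 and C1qc 5200. C1qb and C1qc were highest there in 4 of 4 libraries and C1qa in 3 of 4. Apoe and Trem2 were also highest there on average, at 76424.2 and 980.6 CPM, Trem2 in 4 of 4 libraries and Apoe in 2 of 4. C1qa averaged about equally low in the Ccr2-led and the S100a4-led sub-cluster (5332 and 5374 CPM). Of these, the S100a4-led one was lower with anti–PD-1 and the combination and the Ccr2-led one in the other libraries. C1qb, C1qc and Trem2 averaged lowest in the S100a4-led one (3438, 1760 and 246.9 CPM). That sub-cluster held both classes, with 41, 87, 59 and 66 monocyte-like and 21, 55, 16 and 25 macrophage-like cells, and Mrc1, which averaged highest there at 759.3 CPM, was at 60.18 to 371.3 CPM in its monocyte-like and 1303 to 2332 CPM in its macrophage-like cells.

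Spp1, Arg1 and Hmox1 averaged highest in the sub-cluster named here by Cxcl3 and Bnip3 (142 cells). Arg1 itself was its first gene by fold, so its peak there is a description of what sets the sub-cluster apart. Its leading genes also include Egln3, Ero1l and Ndrg1, known to rise in low oxygen. Arg1 was at 1586, 1543, 1395 and 1392 CPM there in the order of conditions given above, highest of all sub-clusters in 4 of 4 libraries and with no gap between libraries with and without IACS-70654. Hmox1 averaged 652.4 CPM there and was highest in 3 of 4 libraries. Spp1 averaged 7567 CPM there but was highest in 1 of 4 libraries, that of vehicle. The sub-cluster led by Ctsk and Lpl was highest in both libraries given IACS-70654, and the Ctla2a-led one with anti–PD-1 (6492 against 4474 CPM). The Ctsk-led one, with the fatty-acid uptake receptor Cd36 also in front, held 6, 79, 4 and 102 cells, and its Spp1 was at 3519, 9994, 2412 and 13347.7 CPM. Mrc1 was lowest in the Cxcl3-led sub-cluster, at 135.9 CPM.

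**Figure D3:**
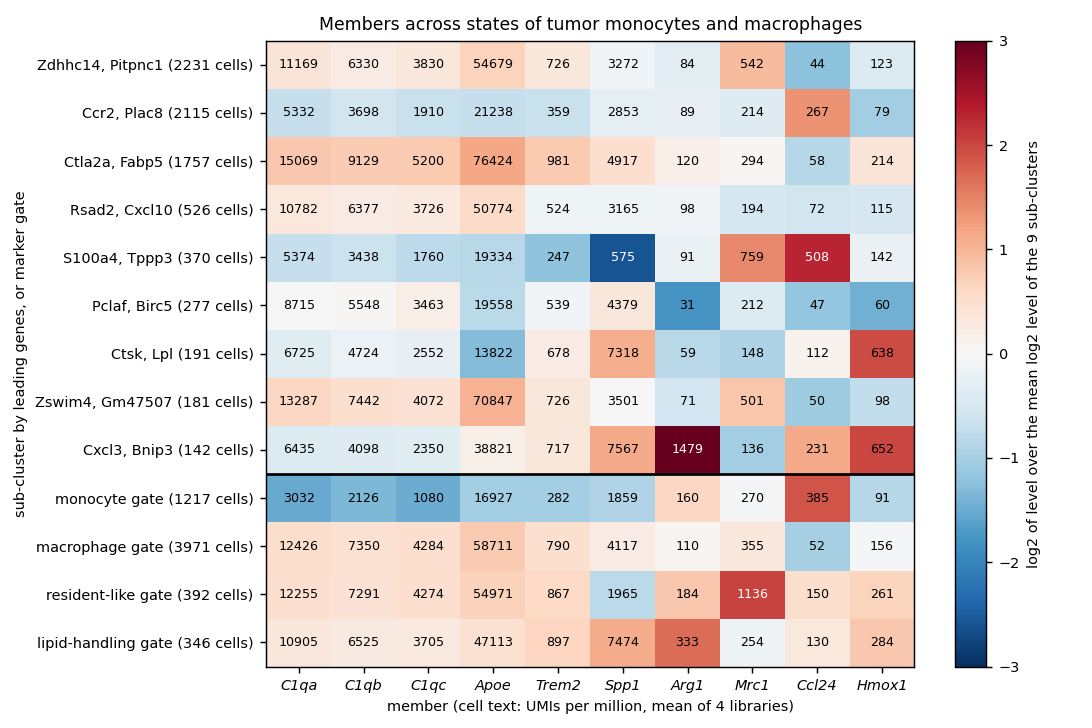
Mean over the 4 libraries of each gene's level (numbers, CPM) in 9 sub-clusters, named by leading genes, and in 4 marker gates, with colour for the log2 level relative to the mean of the 9 sub-clusters. C1q, Apoe and Trem2 were highest in the Ctla2a-led sub-cluster and Spp1, Arg1 and Hmox1 in the Cxcl3-led one, while the resident-like gate was high in Mrc1 and the lipid-handling gate in Spp1.

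At this resolution no sub-cluster had a pair of resident macrophage markers among its first 10 genes. The S100a4-led one, where Mrc1 averaged highest, had the highest resident marker score (1.516). It also had the highest monocyte score (2.229) and the lowest macrophage score (−1.046) of the 9. A finer clustering gave a cluster of 305 cells led by such markers (Folr2 and Cbr2 among them), with Mrc1 at 1061, 1595, 1475 and 1639 CPM, and the clustering of all tumor cells one of 549 cells, with Mrc1 at 977.3, 1086, 1286 and 821 CPM. For this reason resident-like and lipid-handling cells were gated on the number of marker genes detected after thinning, among 7513 cells of at least 2000 UMIs. A monocyte gate took cells with at least 2 of 8 monocyte genes and without the macrophage gate (1217 cells), and the macrophage gate the reverse with at least 4 of 8 macrophage genes (3971). The resident-like gate needed at least 4 of 11 genes such as Lyve1, Folr2, Cd163 and Stab1 (392 cells, 277 of them at the threshold and 659 cells 1 gene below), and the lipid-handling gate at least 6 of 11 genes such as Gpnmb, Fabp5, Lpl and Plin2 (346 cells, 279 at the threshold and 732 just below). These are ranges of a score rather than cell types, and 16 cells met both. The resident-like gate took 10.29% of monocytes and macrophages with vehicle, 3.815% with IACS-70654, 9.246% with anti–PD-1 and 3.835% with the combination, and the lipid-handling gate took 5.144%, 4.56%, 5.832% and 3.737%.

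Mrc1 and Spp1 differed clearly in level between the resident-like and the lipid-handling gate, and C1qc by little. The share of all genes without overlap between these gates was not counted, so the lack of overlap is given as a description. Mrc1 was at 1091, 1187, 1137 and 1128 CPM in resident-like cells and at 400.9, 184.9, 259.2 and 170.4 CPM in lipid-handling cells, and did not overlap between them. Spp1 was at 1485, 1836, 2087 and 2452 CPM in resident-like and at 8042, 7344, 6959 and 7553 CPM in lipid-handling cells, again without overlap. C1qc did not overlap either, at 4086 to 4397 CPM in resident-like and 3402 to 3931 CPM in lipid-handling cells. In the resident-like gate Mrc1 was level across treatment, with log2 ratios of 0.12 (−0.00 to 0.25) and −0.01 (−0.18 to 0.16). In the lipid-handling gate it was lower with IACS-70654, at −1.12 (−1.43 to −0.80) and −0.61 (−0.99 to −0.21), from 41 to 147 cells a library. Trem2 averaged 866.7 CPM in resident-like and 896.6 CPM in lipid-handling cells, so these gates did not part on it, and C1qa averaged 12254.8 and 10904.7 CPM. In the monocyte gate C1qa was at 1955, 4180, 2112 and 3879 CPM, log2 ratios of 1.10 and 0.88.

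Arg1 in lipid-handling cells was at 418.6, 172.9, 553 and 188 CPM, and Hmox1 at 371.4, 190.1, 371.6 and 203.4 CPM. Both were lower in the libraries given IACS-70654, at −1.28 (−1.59 to −0.96) and −1.56 (−1.86 to −1.25) for Arg1 and at −0.97 (−1.29 to −0.64) and −0.87 (−1.20 to −0.53) for Hmox1. In the resident-like gate the Hmox1 comparisons pointed opposite ways, at −0.95 (−1.22 to −0.68) and 0.22 (−0.16 to 0.60). Trem2 in lipid-handling cells was at 1064, 657.2, 1023 and 842.1 CPM. The lipid-handling gate uses Lpl, Cd36 and Lgals3, which themselves differed with IACS-70654 (below), so it may hold different cells in each library. The Cxcl3-led sub-cluster, highest in lipid-handling score, made up 2.273%, 1.768%, 3.556% and 1.332% of monocytes and macrophages. Its part in the values of this gate was not tested.

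Ccl24 was higher with IACS-70654 in every state that had at least 20 cells in both libraries. This was 6 of 6 sub-clusters against vehicle, at log2 ratios of 1.64 to 3.33 in the 4 with over 3 vehicle UMIs. The interferon-response one (Rsad2 and Cxcl10) had 1 vehicle UMI, a ratio of 4.15 with an interval of 1.65 to 9.46, and the cycling one had 3, a ratio of 3.89 (2.29 to 6.19). It was also 7 of 7 for the combination against anti–PD-1, at 1.38 to 3.25. The same held in 4 of 4 gates in both comparisons, at 2.40 to 3.55 and 2.32 to 2.97. These tallies share cells and libraries, and the share of all genes that do likewise was not counted. T or NK cells held up to 160.4 CPM. The Zdhhc14-, Ctla2a-, Rsad2-, Pclaf- and Zswim4-led sub-clusters peaked below this (74.15 to 125.7 CPM), and the others above it (255.2 to 962.4 CPM). The part of RNA from other cells was not tested. In resident-like cells Ccl24 was at 28.36, 242.5, 51.81 and 276.4 CPM, and in lipid-handling cells at 20.63, 240.9, 40.33 and 218.8 CPM. In the S100a4-led sub-cluster it was at 142.4, 962.4, 88.44 and 839.4 CPM, the highest of the sub-clusters in both libraries given IACS-70654, and in the Ccr2-led one at 40.56, 407, 64.65 and 554.7 CPM. In the other 2 libraries small sub-clusters were higher, with 167.6 CPM in the Ctsk-led one with vehicle (6 cells) and 91.7 CPM in the Cxcl3-led one with anti–PD-1 (25 cells).

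**Figure D4:**
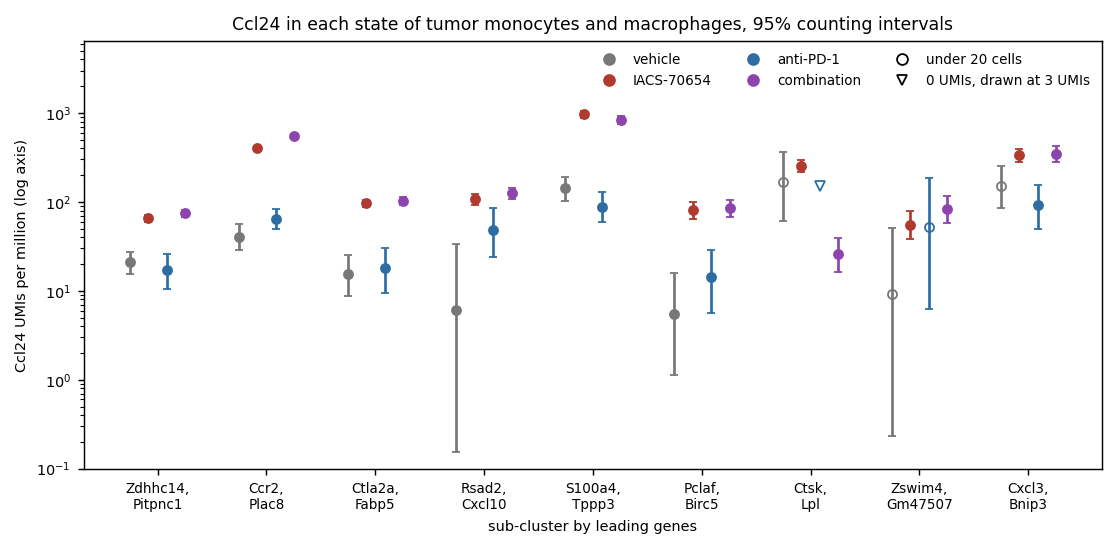
Ccl24 (CPM, log axis) in each of 9 sub-clusters and 4 libraries, with 95% counting intervals, open circles for sums of under 20 cells and a triangle for 0 UMIs drawn at the level of 3 UMIs. Libraries given IACS-70654 were above their counterparts in each sub-cluster with at least 20 cells in both, from 142.4 to 962.4 against vehicle in the S100a4-led one.

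The pathways around these genes are given as counts past 0.5 in both comparisons, a size that 2.78% of all genes reached as higher and 4.84% as lower in macrophage-like cells. Of 9 measured complement genes other than C1q, 0 were higher and 1 was lower past 0.5 in both comparisons in macrophage-like cells (Itgax, 134.4, 78.01, 144.6 and 64.69 CPM), with medians of −0.48 and −0.29. Of 20 lipid-handling genes, 2 were higher, Lpl, the lipase of triglyceride-rich lipoproteins (40.47, 79.83, 35.03 and 98.1 CPM), and the fatty-acid receptor Cd36 (6.811, 11.86, 7.422 and 15.07 CPM), which passed the filter on low values only through the libraries given IACS-70654. In the same list 4 were lower, namely Apoc2, an apolipoprotein that activates that lipase (293.3, 127, 285.9 and 125.2 CPM), Lgals3, Ch25h and Msr1. The medians of the 20 were −0.19 and −0.15, and the count of 2 that includes Cd36 is not read as a result. Of 8 TREM2 signaling genes, 1 was lower, the adaptor Tyrobp (2539, 1755, 2649 and 1726 CPM), and 0 were higher. None of 7 osteopontin receptors and none of 11 arginine and polyamine genes was past 0.5 in both. Of 6 measured alternative activation genes Klf4 was higher (287.1, 443.2, 276.1 and 497.9 CPM). Of 13 heme, iron and NRF2 genes, the HMOX1 repressor gene Bach1 was higher (100.6, 146.4, 98.57 and 149.7 CPM) and the cystine carrier Slc7a11 and the ferritin chain Fth1 were lower (Fth1 20116.1, 13763.4, 20974.5 and 13427 CPM). Of 12 transcription factors, 3 were higher, among them Bhlhe40 and Cebpb (Cebpb 835.8, 1334, 773.4 and 1469 CPM), and 0 were lower. Tyrobp was also a marker of monocytes and macrophages.

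In monocyte-like cells, where the list genes were named after their values were seen, 5 of 9 complement genes were lower in both comparisons, C4b, Itgax, C5ar1, C3 and C3ar1, where 5.2% of all genes were lower and 4.27% higher in both. C3ar1 and C5ar1, the receptors for C3a and C5a, were at 229.2, 135.4, 191 and 134.9 CPM and at 154.8, 63.39, 101.8 and 62.23 CPM. Of 21 lipid-handling genes 4 were higher, Lpl, Cd36, Abca1 and Pltp, and 6 lower, among them Apoc2 (407.8, 61.3, 480 and 104.5 CPM). The alternative activation list gave 2 higher, the lectins Mgl2 and Clec10a, and 2 lower of 9, Chil3 and Pparg. Chil3, also a marker of monocytes, was at 72.94, 14.61, 94.25 and 9.994 CPM. Lists of TREM2 signaling (1 of 8 lower, Tyrobp), osteopontin receptors (2 of 7 lower, Itga9 and Cd44), arginine metabolism (Srm higher and Ass1 lower of 10), heme and NRF2 (Gclc higher and Slc7a11 lower of 13) and transcription factors (3 of 13 lower, Nr1h3, Hif1a and Pparg) held the other members past 0.5 in both comparisons. Among the genes behind these monocyte-like counts, Cd36, Apoc1 (one of the 6 lower lipid-handling genes), Nr1h3 and Pparg passed the filter on low values only through the libraries where they were higher. Their direction was thus partly set by the filter, and the counts that include them are not read as a result.

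Across 27 sums of sub-cluster and library with at least 50 cells, which share libraries and depth, the C1q chains were each other's nearest genes of 7672, with Pearson r of 0.99 for C1qa and C1qb, 0.97 for C1qb and C1qc and 0.96 for C1qa and C1qc. The next was the tetraspanin Cd63 for all 3, at 0.91 to 0.94. The genes nearest to Apoe were Psap (0.88), Lgals3bp and Camk2n1, and those nearest to Trem2 were Ctsa (0.92), Ctsz and Syngr1, among which Psap, Ctsa and Ctsz encode lysosomal proteins. Spp1 was nearest to Cxcl14 (0.92), Cotl1 and Fam20c, and Mrc1 to Lifr (0.88), Ap1b1 and Fchsd2. Arg1 was nearest to Prelid2 (0.75), Bnip3l and Hmox1 (0.70), and Hmox1 to Bnip3l (0.79), Slc48a1, a heme transporter, and the ferritin gene Ftl1. Ccl24 was nearest to Tmbim4 (0.84), Mfsd6 and Ier3. Among the 10 genes, the closest pairs other than those of C1q chains were C1qa and Apoe (0.79), C1qc and Trem2 (0.78) and Spp1 and Trem2 (0.74). Spp1 and Mrc1 ran apart (−0.69), as did Trem2 and Ccl24 (−0.67).

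BM offered the replicated comparison. Its monocyte-like cells numbered 208 and 236 in the WT libraries, 156 and 176 in the vehicle libraries, and 304 and 366 in those of IACS-70654. Of the 10 genes, 7 passed the count filter, and C1qb, C1qc and Arg1 did not. Of the 7, 4 were called for IACS-70654 against vehicle with edgeR's quasi-likelihood test (adjusted p under 0.01 and a log2 change past 0.5), where 5.54% of 9499 genes were called, and 0 were called for vehicle against WT, where 0.621% were. With edgeR, 6 of the 7 had an unadjusted p under 0.05 for IACS-70654 against vehicle and 4 for vehicle against WT. With DESeq2 these were 5 and 1, and it called 3 and 0. The share of all genes under the unadjusted cut was not counted, so these counts are not read as a result.

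Apoe fell in BM monocyte-like cells. It was at 1548 and 1764 CPM in WT, 2114 and 1845 with vehicle, and in the IACS-70654 group 829.6 and 739.4, a log2 change of −1.35 (SE 0.07, edgeR adjusted p = 1.98e-12) against vehicle. Both IACS-70654 libraries were below all 4 others. The same order was seen for C1qa, Spp1 and Hmox1, which were not called, C1qa on 1 UMI in each and Hmox1 with overlapping intervals. The share of all genes in this order was not counted. In tumor monocyte-like cells the Apoe ratios were positive, at 0.32 against vehicle, not past 0.5, and 0.71 for the combination against anti–PD-1. Within the tumor the sign varied by state, with −0.48 against vehicle in the S100a4-led sub-cluster. The Apoe difference between sites was not tested. Trem2 rose, from 36.79 and 53.75 CPM with vehicle to 99.37 and 103.1 CPM (WT 37.27 and 26.81), a change of 1.14 (SE 0.15, edgeR adjusted p = 7.68e-06). In tumor monocyte-like cells the Trem2 ratios were −0.40 and 0.18, and the difference between sites was not tested. Ccl24 rose from 17.27 and 27.56 CPM to 50.53 and 66.41 CPM (WT 36.65 and 38.07), by 1.37 (SE 0.20, edgeR adjusted p = 3.59e-05). The vehicle libraries were the low ones for Ccl24, and IACS-70654 libraries lay above WT as well.

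Mrc1 was at 11.8 and 23.05 CPM in WT, 1.502 and 11.71 in the vehicle group and 27.47 and 27.23 after IACS-70654, a change of 1.98 (SE 0.39, edgeR adjusted p = 0.000862). The call rested on low counts. DESeq2 gave an adjusted p of 0.309, and without the first vehicle library, which held 2 Mrc1 UMIs, the edgeR adjusted p was 0.022 at a change of 1.22. Without the second vehicle library the change was 4.11. C1qa held 24 and 3 UMIs in WT, 8 and 4 for vehicle, 1 and 1 for IACS-70654, and its change was not called (edgeR adjusted p = 0.0413). A group of 18 BM cells at a median of 656 UMIs, led by Igha and the C1q genes, stayed unnamed and outside this class. Spp1 (18.77 and 24.81 CPM with vehicle, 14.24 and 12.23 with IACS-70654) was not called, at −0.75 (edgeR adjusted p = 0.0551). Hmox1 (44.3 and 46.86, then 42.06 and 42.52 CPM) gave −0.12 (SE 0.16, edgeR adjusted p = 0.701). The median log2 change of the 7 genes was −0.12 against 0.01 for all genes.

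**Figure D5:**
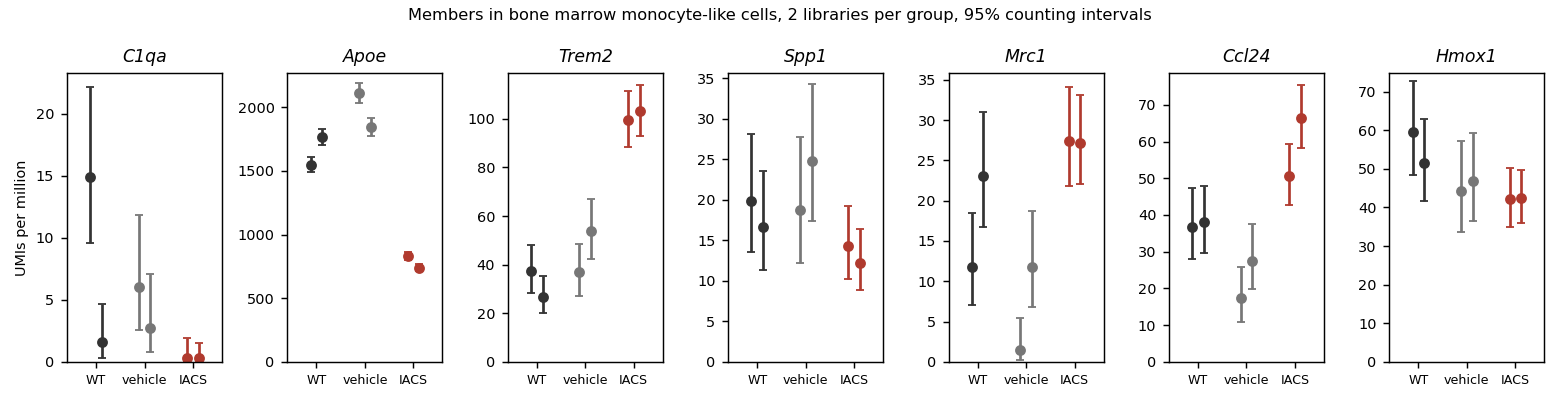
Level of 7 genes (CPM, axes from 0) in BM monocyte-like cells of WT, vehicle and IACS-70654 groups, with 1 point per library, 2 per group, and bars for 95% counting intervals. Of the 4 called genes, Apoe was lower and Trem2, Mrc1 and Ccl24 were higher in both IACS-70654 libraries than in all others. C1qa, Spp1 and Hmox1 were lower there but were not called. C1qa had 1 UMI in each IACS-70654 library and passed the count filter only through the other groups. The Hmox1 intervals overlapped those of vehicle. The share of all genes set apart in this way was not counted.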

How the data were processed

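RNA of single cells was counted in 4 tumor libraries and 6 CD45+ BM libraries of the 16 in the series (10x Genomics 3′ kit, CellPlex tags), and the 6 BM libraries of lineage-negative cells were not used. The authors made raw UMI counts per gene and cell with Cell Ranger (7.1.0 for tumor and 7.2.0 for BM in the file headers; the paper names 7.2.0 for both) and mm10 per the labels, and deposited the counts without normalization. The files hold 10 of these genes by symbol. Treatment of BM donors is given differently in the series record and the paper. The 10 genes and the lists were chosen with earlier results of these data known. All were named, with the list genes past 0.5 on the log2 scale in the same direction in both comparisons without a shared library (at most 4 per list and direction in macrophage-like cells) and the 3 nearest genes of each. Every such list gene is named for monocyte-like cells too, except some lipid genes, an extension made after the values were seen. Some list genes are not reported here.

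Kept cells had over 200 genes, under 6000 genes and no more than 10% of UMIs from mitochondrial genes. The libraries of a site were clustered together without integration, unlike the study (scanpy 1.11.5, leidenalg 0.10.2, 2000 variable genes, 30 components, 20 neighbors, resolution 1, then 0.4 for monocytes and macrophages), and clusters were named from marker scores. Tumor UMIs were summed per class and library and given as CPM with exact Poisson intervals, ratios with exact conditional intervals and shares with exact binomial intervals (scipy 1.17.1). PCR copies are collapsed by UMIs, and the intervals and limits cover counting error only. Genes with a mean of at least 10 CPM were the background. BM sums were tested in R 4.3.3 with the quasi-likelihood test of edgeR 4.0.16 (all 6 libraries, TMM scaling, low genes removed by filterByExpr, Benjamini-Hochberg adjustment over all genes), with DESeq2 1.42.0 as an alternative. BM libraries held 27816638 to 54510172 UMIs. Fits were tested on simulated data. No block for the replicate number was used, since the study names none, and a fit with it is given as an alternative. Alternatives covered scaling, cell filters, doublets, class definitions, resolution, thinning, tools and left-out libraries.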

Additional observations from a re-analysis of the deposited data

Results flagged for a closer look

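Apoe had ratios of opposite sign in the tumor and BM: in tumor monocyte-like cells the log2 ratio was 0.32 for IACS-70654 against vehicle, which is not past 0.5, and 0.71 for the combination against anti–PD-1, while BM monocyte-like cells were lower in both libraries, at a log2 change of −1.35 against vehicle. Within the tumor the sign was not the same in every state. In the S100a4-led sub-cluster Apoe was lower against vehicle, at −0.48 (−0.52 to −0.44), and higher for the combination, at 0.68, and in the Ccr2-led one the ratios were 0.11 and 0.44. The difference between sites was not tested, since the tumor conditions have 1 library each.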

How the results depend on the processing

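Ccl24 stayed past 0.5 in both classes and both comparisons under each of 10 alternatives (log2 ratios 2.14 to 3.11 and 1.90 to 2.63 in macrophage-like, 2.07 to 2.95 and 2.63 to 3.11 in monocyte-like cells), as did Apoe in macrophage-like cells (0.51 to 0.66 and 0.77 to 0.96). C1qa in monocyte-like cells stayed past 0.5 under 7 of 10 (0.22 to 1.71) and 8 of 10 (0.28 to 1.56), the exceptions being class definitions. The 2 definitions from sub-clusters were added after the data were seen, the higher score first and a monocyte score higher by at least 1 second, once the values of the first were known. Of 800 alternatives for tumor ratios, 500 stayed within their spread, 293 moved and 7 reversed. With IACS-70654 against vehicle, Hmox1 reversed to 0.00 (0.004578) in macrophage-like cells without doublet calls and cells with epithelial or neutrophil UMIs, and in monocyte-like cells to −0.51 with both classes together, −0.24 in gated cells and −0.40 with the second sub-cluster definition. C1qc reversed to −0.04 in both comparisons (−0.03876 and −0.03724) with the first definition, and Spp1 in the combination against anti–PD-1 to −0.06 (−0.06279) with both classes together.

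Of the 10 genes, those past the threshold in macrophage-like cells were 1 and 1 at a log2 threshold of 1 (2.04% and 2.74% of all genes). For anti–PD-1 against vehicle they were 3 without doublet calls and cells with epithelial or neutrophil UMIs (19.5%) and 1 as a mean over cells (6.65%). In monocyte-like cells they were 3, 4, 0 and 0 (IACS-70654 against vehicle, combination against anti–PD-1, anti–PD-1 against vehicle, combination against IACS-70654) with both classes together (10.8%, 12%, 3.54% and 0.515% of all genes), 1 and 3 with the first sub-cluster definition (17.6% and 17.0%), 2 and 5 with the second (21.4% and 20.8%), 5 for the combination against anti–PD-1 at a log2 threshold of 1 (6.03%), and 4 and 3 for the last comparisons without doublet calls and cells with such UMIs (48.6% and 17.8%). With the first sub-cluster definition, 1 of 10 is no more than the share of all genes. In BM, called genes were 268 and 30 with DESeq2 (IACS-70654 against vehicle, vehicle against WT), against 526 and 59. For vehicle against WT they were 108 with no filter and 106 with the cycling and Adgre4-led clusters added after the data were seen. Leaving out 1 library gave 377 to 530 and 38 to 76 genes, and 3 to 4 and 0 to 1 of the 10. The 1 was Mrc1 without the second vehicle library (−3.52, edgeR adjusted p = 0.00179). With the replicate number as a block, 529 and 67 genes and 4 and 0 of the 10 were called. Same-numbered libraries had correlations of deviations of −0.04 to 0.04 over all tested genes. Counting noise in low genes weakens such correlations, so this check cannot exclude a pairing. Depth limits C1qa, Arg1 and Mrc1 in BM and states of few cells in tumors.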
